A study of Mus musculus with 11 samples.

Results

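The transcripts of 3 genes of detoxification and export, Nqo1, Abcc1 and Ugdh, were followed across tumor-derived mammary cell lines with and without Cpt1a, the enzyme that admits long-chain fatty acids to mitochondria for oxidation. They were chosen by gene name from the deposited expression table and are 3 of its 4461 genes. The table covers 11 RNA-Seq libraries from 6 cultured, untreated lines, each grown from a mammary tumor of a female MMTV-NIC mouse, in which the MMTV promoter drives activated ErbB2 together with Cre recombinase in mammary epithelium. NIC/Cpt1a L/L lines, labelled NIC/conditional Cpt1a KO, carry conditional Cpt1a alleles and are KO_1922, KO_1925, KO_2768 and KO_4258. NIC/Cpt1a +/+ lines, labelled NIC/wild-type, are WT_5257 and WT_8905, and they share the ErbB2 and Cre transgene and the culture medium with the others. Tumors were taken 8 weeks after palpation. Lines were sequenced in duplicate, except KO_2768, for which 1 library was used here, so the line is the replicate and n is 4 against 2. The sample titles word the allele status the other way round from the genotype field, and the genotype field was followed. Cpt1a itself was not analysed here, so the labels were not checked on the deleted gene.

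Nqo1 encodes NAD(P)H quinone dehydrogenase 1, which reduces quinones by transferring a pair of electrons at once and so avoids semiquinone radicals. Abcc1 encodes MRP1, a plasma membrane pump that exports glutathione and glucuronide conjugates. Ugdh encodes UDP-glucose dehydrogenase, which makes UDP-glucuronate, the sugar donor of glucuronidation and a building block of hyaluronan and other glycosaminoglycans. The transcription factor Nrf2 (gene Nfe2l2) is released from Keap1 and the Cul3 ubiquitin ligase under oxidative or electrophilic stress and binds antioxidant response elements, and Nqo1 is among its best known targets. The comparison of genotypes asks whether genes of this response differ when Cpt1a is lost.

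In mm10 coordinates of the table, Nqo1 (ENSMUSG00000003849) lies on the minus strand of chr8:107388225-107403206, Abcc1 (ENSMUSG00000023088) on the plus strand of chr16:14361558-14475737 and Ugdh (ENSMUSG00000029201) on the minus strand of chr5:65413202-65435946. In the GENCODE M21 annotation the principal transcripts have 6 exons for Nqo1, 31 for Abcc1 and 12 for Ugdh. Ugdh shares part of its span with Gm43552, a same-strand model annotated from position 65427427 to 65492833, and with Gm43289, so some of its reads could be shared or left uncounted. RefSeq promoter windows on GRCm38.p6 were matched for 2 of the 3 genes, Nqo1 and Ugdh, and the 250 bases before the RefSeq start were searched because Nrf2 acts through such elements. The start in the table lies 104 bases upstream of the RefSeq start for Ugdh and 1 base upstream for Nqo1, and the letters are shown up to the table's start. The Nqo1 letters are chr8:107403207-107403455 and the Ugdh letters chr5:65435947-65436092, both on the minus strand, 5′ to 3′. Capitals mark TATAAA in Nqo1 and the antioxidant response element core TGACNNNGC in Ugdh.
Nqo1: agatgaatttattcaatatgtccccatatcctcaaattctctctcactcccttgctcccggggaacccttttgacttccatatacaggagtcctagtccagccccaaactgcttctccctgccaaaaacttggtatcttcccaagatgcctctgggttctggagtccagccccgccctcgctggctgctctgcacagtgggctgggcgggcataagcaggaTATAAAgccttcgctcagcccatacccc
Ugdh: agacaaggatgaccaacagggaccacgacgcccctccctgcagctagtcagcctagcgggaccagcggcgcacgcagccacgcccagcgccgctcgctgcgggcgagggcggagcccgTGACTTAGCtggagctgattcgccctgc

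Both strands were searched. The Ugdh stretch held TGACNNNGC at 2 places, from position -132 to -124 as TGACTTAGC on the strand of the gene and from -94 to -86 as TGACCACGC on the other strand, counted back from the RefSeq start. The second of these lies inside Ugdh as the table places it and is not among the letters shown. Of all 32851 windows of this length, 10.2% held the motif. The aryl hydrocarbon receptor core GCGTG was found at 3 places in Ugdh, of which the one from -94 to -90 lies inside the second TGACNNNGC match, and 28.2% of windows held it. Neither stretch held the AP-1 letters TGANTCA, present in 6.75% of windows. The Nqo1 stretch held TATAAA from -29 to -24, a sequence in 12.4% of windows, and neither TGACNNNGC nor GCGTG, which says only that these letters are not in this window. GC content was 53.2% for Nqo1 and 69.2% for Ugdh against a median of 52.4% over all windows.

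The listed genes held 33.3% to 34.6% of the reads of each library. Library totals recovered from counts, gene lengths and FPKM (reads per kilobase of gene length, scaled to a fixed library size) were 15199378 to 17372643 reads for the control lines. Those of the lines lacking Cpt1a were all deeper, at 18247312 to 25386785. All 4461 listed genes had a deposited adjusted p-value under 0.05 for this same contrast, so that a genotype difference in a listed gene was fixed by its being listed. Genotype values below are therefore descriptions. Such a p-value also depends on the spread within a genotype, so the spread among lines of 1 genotype entered the choice of genes too, and comparisons of spread hold among the listed genes alone. Of 11 luminal markers, Elf5 and Erbb3 were in the table, and their summed level was 153 to 234 CPM (counts scaled to a common library size) in NIC/Cpt1a L/L lines and 486 to 562 CPM in NIC/Cpt1a +/+ lines. Of 10 fibroblast markers 4 were in the table, and their sum was 1393 CPM in KO_2768, of which Dcn made up 1368 CPM, 3.29 to 7.77 CPM in KO_1922 and KO_1925, 0 CPM in KO_4258 and WT_5257, and 0.0937 CPM in WT_8905. Of 9 leukocyte markers, Csf1r alone was in the table, at 312 CPM in KO_4258, 0.0775 to 17.2 CPM in the remaining lines lacking Cpt1a and 0.0316 to 0.437 CPM in NIC/Cpt1a +/+ lines. Of 7 basal or myoepithelial markers 3 were in the table. Their sum was 55.6 CPM in WT_8905, of which Oxtr made up 55.5 CPM. It was 2.90 CPM in WT_5257 and 1.26 to 14.2 CPM in NIC/Cpt1a L/L lines. Krt17, another of these, was 1.17 to 10.6 CPM in NIC/Cpt1a L/L lines and 0 and 0.0312 CPM in the controls. KO_2768 and KO_4258 thus stand apart from the other lines, as does WT_8905 by Oxtr. The members' fold changes and spread are given without KO_2768 and KO_4258 as well. In bulk RNA, fewer cells of a type and less RNA per cell cannot be told apart.

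Abcc1 was the member with the most even contrast: every NIC/Cpt1a L/L line held several times the level of either control line. Its counts were 3311 and 2757 in KO_1922, 3467 and 3163 in KO_1925, 4440 in KO_2768, 4239 and 3412 in KO_4258, 397 and 459 in WT_5257, and 729 and 730 in WT_8905. Per length, FPKM was 22.7 in KO_1922, 26.1 in KO_1925, 25.8 in KO_2768 and 25.1 in KO_4258, against 3.87 in WT_5257 and 6.50 in WT_8905. The lines of the genotypes did not overlap, and the lowest NIC/Cpt1a L/L line was 3.23 times the highest NIC/Cpt1a +/+ line in CPM. The mean was 167 CPM ± 13.3 (SD, n = 4 lines) without Cpt1a and 36.3 CPM ± 13.1 (SD, n = 2 lines) with it. By edgeR's quasi-likelihood test on counts summed by line the log2 fold change was 2.20 (SE 0.27), with a Benjamini-Hochberg adjusted p of 0.0286 over the 4268 genes tested. In this test 1.66% of genes were called raised and 3.47% lowered. With all 55450 annotated genes counted as tests the adjusted p of Abcc1 in edgeR was 0.372, and 0% of genes were called raised. At an unadjusted p under 0.05 edgeR gave 917 raised genes, or 21.5%. At the adjusted threshold, where edgeR called 71 genes raised, DESeq2 on the same sums called 974 (22.2% of genes raised and 33% lowered). Limma-voom with correlated duplicates called 305, or 7.74% of genes raised and 23.3% lowered. Without KO_1922, KO_1925 or WT_5257 the edgeR adjusted p of Abcc1 was 0.102, 0.0985 and 0.0896, at log2 fold changes of 2.19, 2.19 and 1.78. Without KO_2768 it was 0.0370 and without KO_4258 it was 0.0284, at 2.11 and 2.18.

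Ugdh was higher in every NIC/Cpt1a L/L line than in either control line, by a smaller and less even margin. Its counts were 2003 and 1680 in KO_1922, 1957 and 1834 in KO_1925, 2889 in KO_2768, 2327 and 2106 in KO_4258, 453 and 570 in WT_5257, and 1203 and 1090 in WT_8905. FPKM was 25.2 in KO_1922, 27.2 in KO_1925, 30.6 in KO_2768 and 26.7 in KO_4258, against 8.42 in WT_5257 and 18.6 in WT_8905. The groups did not overlap, but the lowest NIC/Cpt1a L/L line was only 1.25 times WT_8905 in CPM. The mean level was 101 CPM ± 9.28 (SD, n = 4 lines) against 51.9 CPM ± 27.8 (SD, n = 2 lines). The log2 fold change was 0.95 (SE 0.34), with an edgeR adjusted p of 0.0868, so the difference did not pass the threshold of 0.05 by line. The median log2 fold change of all genes tested was 0.49 on the same scale. The value rested on which control line was used, since it was 1.65 without WT_8905, at an edgeR adjusted p of 0.0433, and 0.39 without WT_5257, at 0.270. Without KO_2768 it was 0.82 and without KO_4258 it was 0.95.

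Nqo1 was a low transcript in all lines and close to absent from the controls. Its counts were 25 and 39 in KO_1922, 34 and 38 in KO_1925, 99 in KO_2768, 4 and 2 in KO_4258, 0 and 0 in WT_5257, and 1 and 1 in WT_8905. FPKM was 1.07 in KO_1922, 1.24 in KO_1925, 2.51 in KO_2768 and 0.0843 in KO_4258, and 0 in WT_5257 and 0.0390 in WT_8905. KO_1922, KO_1925 and KO_2768 lay well above the controls, whereas KO_4258 lay beside WT_8905. The 241 reads of the 4 NIC/Cpt1a L/L lines against 2 reads of the control lines gave a ratio per library read of 53.9 (exact 95% interval 14.7 to 447, counting error only). For KO_4258 alone the ratio was 4.40 (exact 95% interval 0.786 to 44.5), which includes no difference, so none was detectable at this depth. For KO_2768 alone it was 128 (34.5 to 1071) and for KO_1922 and KO_1925 53.5 and 63.2. By line the edgeR adjusted p was 0.0790, and a fitted fold change for so few control reads depends on the prior count. Leaving out KO_4258 brought the edgeR adjusted p to 0.0454, and leaving out KO_2768 gave 0.0936.

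**Figure D1:**
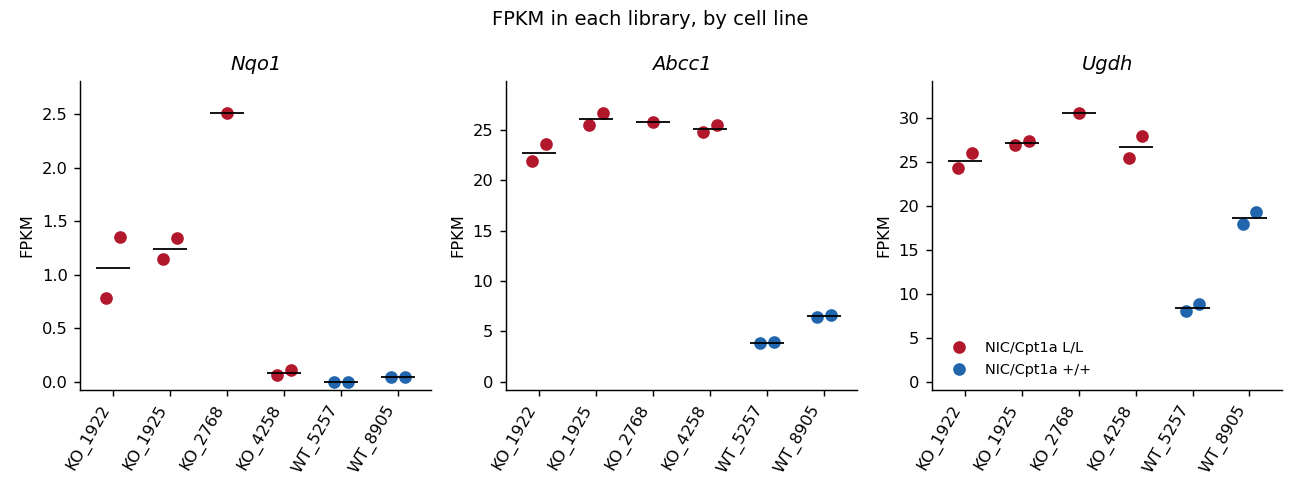
FPKM of Nqo1, Abcc1 and Ugdh on the vertical axes in each library (points) of the 6 lines, with the line mean as a bar, in red for NIC/Cpt1a L/L and blue for NIC/Cpt1a +/+. Abcc1 lay between 21.9 and 26.6 FPKM in every red library and between 3.85 and 6.59 in every blue one, while Nqo1 in KO_4258 sat near the controls.

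Every NIC/Cpt1a L/L line above both control lines, which all 3 genes showed, was seen in 35.1% of the genes tested, so this order by itself was common in the table. On log2(FPKM + 0.01) the mean difference between genotypes was 5.09 for Nqo1, 2.31 for Abcc1 and 1.13 for Ugdh, and with a pseudocount of 1 that of Nqo1 was 1.01. The two-sided exact permutation test over lines gave p = 0.133 for each, the smallest value that 4 lines against 2 allow. Among the 2501 genes with a positive log2 fold change, Nqo1 ranked 310, Abcc1 991 and Ugdh 1563 by size. By p-value of the edgeR fit Abcc1 ranked 28, Nqo1 1286 and Ugdh 1549 of 4268.

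**Figure D2:**
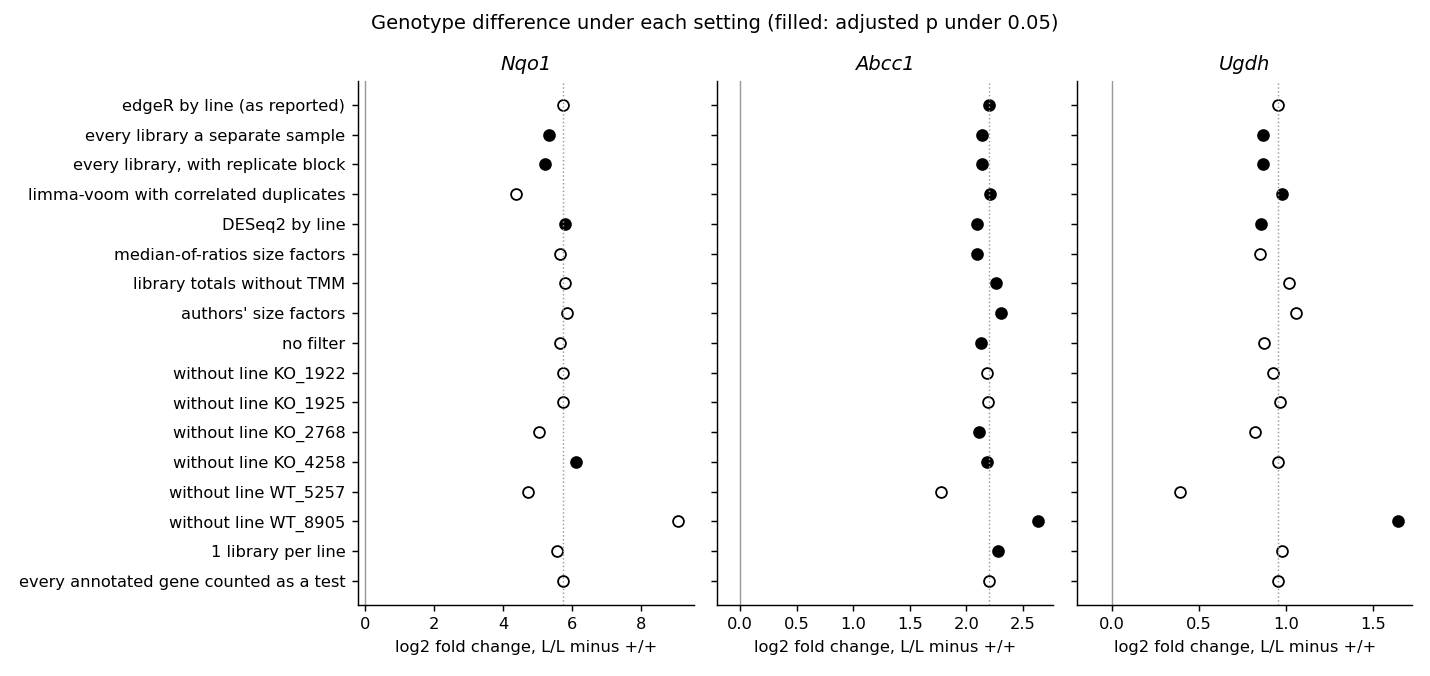
Log2 fold change of each gene (horizontal axes) under the reported test and 16 other settings (rows), with filled points for an adjusted p under 0.05, a solid line at 0 and a dotted line at the reported value. All points lie to the right of 0, Abcc1 between 1.78 and 2.64 and Ugdh between 0.39 and 1.65, and the Nqo1 values depend on the prior count because the controls held 2 reads.

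Per length, the order of the members was the same in each of the 6 lines, with Ugdh first, Abcc1 next and Nqo1 last. In NIC/Cpt1a L/L lines Ugdh averaged 27.4 FPKM ± 2.28 and Abcc1 24.9 ± 1.52 (SD, n = 4 lines), and their ranges over lines overlapped. Within each of the 4 lines Ugdh was the higher, by 1.16 to 4.84 FPKM (mean 2.52 ± 1.64 SD). Nqo1 averaged 1.23 FPKM ± 0.997 (SD, n = 4 lines), with Abcc1 20.3 times as high. In NIC/Cpt1a +/+ lines Ugdh averaged 13.5 FPKM ± 7.23 and Abcc1 5.18 ± 1.86 (SD, n = 2 lines), with no overlap of the line values, and Nqo1 0.0195 FPKM. Among the genes tested, Abcc1 moved from the 46.1 percentile of FPKM in the controls to the 76.9 percentile in lines lacking Cpt1a, Ugdh from 64.9 to 78.9 and Nqo1 from 8.15 to 23.0. The gene lengths behind FPKM were 1553 bases for Nqo1, 6792 for Abcc1 and 3720 for Ugdh. The Ugdh length lies between that of its principal transcript, 2550 bases, and that of all its annotated exons, 6752 bases, and its level against Abcc1 depends on that choice.

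The clearest contrast between the members was in how far lines of the same genotype differed. Abcc1 and Ugdh were held within narrow limits in the NIC/Cpt1a L/L lines, whereas Nqo1 differed widely through KO_2768 and KO_4258. In CPM, Abcc1 was 147 in KO_1922, 173 in KO_1925, 172 in KO_2768 and 176 in KO_4258. Its highest and lowest lines differed by 0.25 on the log2 scale, in the 5.60 percentile of the listed genes tested. Ugdh was 89.4, 98.9, 112 and 102 CPM in the same order of lines, a range of 0.31, in the 9.23 percentile. Nqo1 was 1.55, 1.88, 3.84 and 0.138 CPM, a range of 4.02, in the 88.3 percentile. The median range over all genes was 0.97. Over the 4 lines the coefficient of variation was 7.94% for Abcc1, 9.23% for Ugdh and 82.3% for Nqo1, against a median of 30.5%. Without KO_4258 the Nqo1 range was 1.23 (71.5 percentile, median of all genes 0.64) and its coefficient of variation 51.0%, and without KO_2768 they were 3.03 (88.2 percentile) and 77.8%. Without both lines Nqo1 had a range of 0.23, beside a median of 0.24, and a coefficient of variation of 13.4%, so its wide spread rested on these lines. Abcc1 had a range of 0.21 without KO_4258 and 0.25 without KO_2768, and Ugdh 0.31 and 0.19. Without both, Abcc1 was at 0.21 (44.6 percentile) and Ugdh at 0.13 (29.9 percentile), so their place at the low end was not seen between KO_1922 and KO_1925. These ranges were tested against the spread of duplicate libraries with a line factor in edgeR, a fit in which 88.6% of 4377 genes differed among NIC/Cpt1a L/L lines. All 3 genes were among them, at edgeR adjusted p of 6.56e-10 for Nqo1, 0.000132 for Abcc1 and 0.000663 for Ugdh, and with so high a share the call says little about a gene. Without KO_2768 and KO_4258 the edgeR adjusted p was 0.609 for Nqo1, 0.000783 for Abcc1 and 0.0808 for Ugdh, and without KO_1922 it was 0.789 for Abcc1, at a range of 0.036. KO_2768, the line with 1368 CPM of Dcn, was the highest for Nqo1 and Ugdh, and KO_4258, with 312 CPM of Csf1r, was the lowest for Nqo1 and, in CPM, the highest for Abcc1. Whether the Dcn and Csf1r reads came from other cells or from the tumor cells was not tested. Nor was any part of such other cells in the member values.

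Between the control lines, Abcc1 and Ugdh were both lower in WT_5257 than in WT_8905. Abcc1 was 27.0 and 45.6 CPM, a log2 difference of -0.81 (SE 0.07, edgeR adjusted p = 1.04e-13). Ugdh was 32.3 and 71.6 CPM, a log2 difference of -1.20 (SE 0.07, edgeR adjusted p = 2.93e-20). Duplicates of a control line differed by at most 10.1% for Ugdh and 2.68% for Abcc1. In the same fit 61.1% of genes differed between the control lines, and the median absolute log2 difference was 0.52. For Ugdh the gap between the controls was larger than its log2 fold change between genotypes. Nqo1 had 0 reads in WT_5257 and 2 in WT_8905, a difference not detectable at this depth, where 3 counts correspond to 0.173 to 0.197 CPM in a WT_5257 library.

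**Figure D3:**
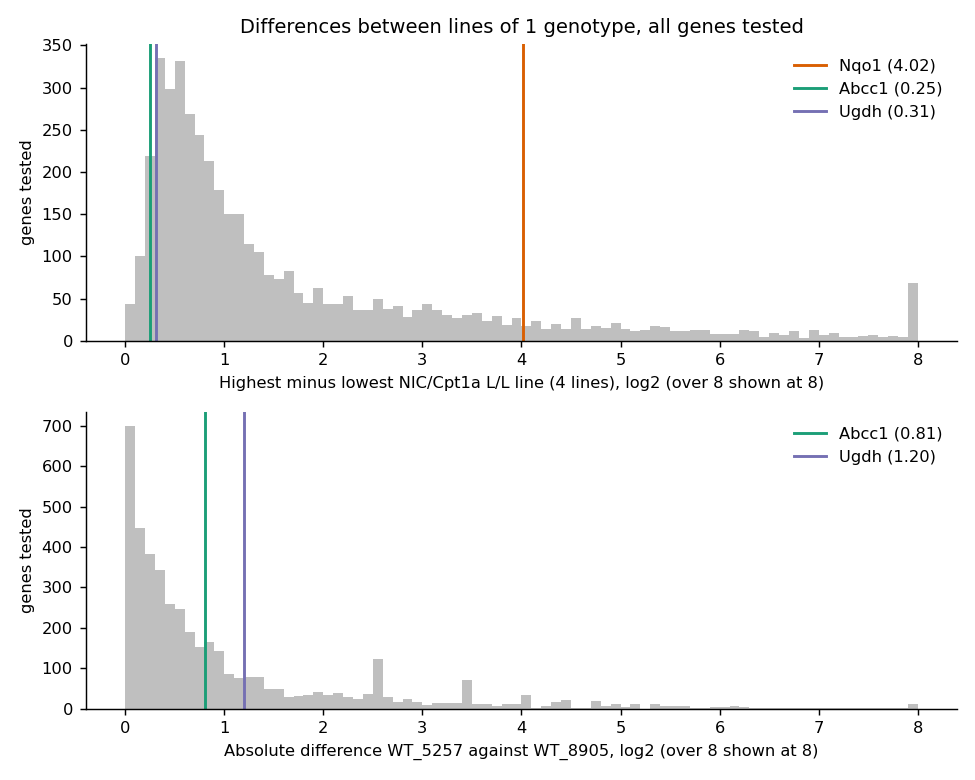
Histograms over all genes tested of the log2 range among the 4 NIC/Cpt1a L/L lines (top) and of the absolute log2 difference between the 2 NIC/Cpt1a +/+ lines (bottom), with the number of genes on the vertical axes and values over 8 drawn at 8. Abcc1 (0.25) and Ugdh (0.31) lie at the low edge of the top histogram and Nqo1 (4.02) in its tail, and in the bottom histogram Abcc1 (0.81) and Ugdh (1.20) lie to the right of the median of 0.52.

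Genes with roles next to the members were then counted. The 9 lists held 181 distinct genes, of which 53 were in the table and 50 passed the filter on low counts. Of these 50, 35 had a positive and 15 a negative log2 fold change, with a median of 0.74, beside 58.6% positive and a median of 0.49 over all genes tested. By edgeR with adjustment over all genes tested, 2 were called raised (the member Abcc1 and Cul3) and 3 lowered (Mgst1, Mgst2 and Abcd3). Over all genes edgeR called 1.66% raised and 3.47% lowered, and so few calls are not a result about the lists. DESeq2 by line called 24 of the 50 in either direction and limma-voom with correlated duplicates 15. Over all genes DESeq2 called 22.2% raised and 33% lowered, and limma-voom 7.74% raised and 23.3% lowered. Calls by these tools in the lists below are counts beside those shares and are not results about a list. Genes named below only for such a call were chosen after their values were seen. In 22, or 44.0%, every NIC/Cpt1a L/L line was above both control lines, beside 35.1% of all genes tested, and in 14, or 28.0%, below both, beside 38.2%. The 3 members are counted among the 35 positive genes and among these 22, and their order was known beforehand. No direction among the 50 changed under 3 other scalings of the libraries, and leaving out 1 line changed that of 3, Cyb5r3, Gstp2 and Abcf1.

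Of 23 genes of quinone and carbonyl reduction 12 were in the table, 9 with positive and 3 with negative values (median 1.82), and edgeR by line called none, with 4 at an unadjusted p under 0.05. At that unadjusted threshold edgeR gave 917 genes raised and 1237 lowered of the 4268 tested. Counts at it in this and the following lists are therefore not results about a list. DESeq2 called 6, Nqo1, Akr1b8, Aldh1a3, Aldh3a1, Aldh3a2 and Aldh2, and limma-voom 2, Aldh3a2 and Aldh2. Aldh1a1, a retinaldehyde dehydrogenase, was at 84.3 CPM in KO_2768 and 1.22 to 3.24 CPM in the other lines lacking Cpt1a, against 0.221 and 0 CPM in the controls. Akr1b8, an aldo-keto reductase, followed a similar course, at 41.9 CPM in KO_2768, 0.184 to 3.71 in the others, and 0.126 and 0 in the controls. For both, the high value was that of KO_2768, the line that also held most Dcn, and a link between them was not tested. Aldh1a3, a related retinaldehyde dehydrogenase, was lower in each NIC/Cpt1a L/L line (0.0388 to 0.365 CPM) than in WT_5257 (0.884 CPM) or WT_8905 (10.3 CPM). The aryl hydrocarbon receptor battery, which holds Nqo1 as well, had 4 of 12 genes in the table, 3 of them positive (median 2.81), and edgeR called none, with 1 at an unadjusted p under 0.05, whereas DESeq2 called Nqo1 and Aldh3a1 and limma-voom Cyp1b1. Its classical target Cyp1a1 was highest in a control line, at 37.5 CPM in WT_5257 against 1.94 in WT_8905 and 0 to 3.81 in lines without Cpt1a. Cyp1b1 was 262 to 292 CPM in 3 lines without Cpt1a and 94.2 in KO_4258, between the controls at 26.9 and 129. Aldh3a1, an aldehyde dehydrogenase of both lists, was 15.8 to 180 CPM without Cpt1a and 0.0631 and 8.02 in the controls.

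For the supply of UDP-glucuronate, 3 of 21 listed genes were in the table, Ugdh, Slc35d1 and Pgm1, all positive (median 0.72). EdgeR called none, with 2 at an unadjusted p under 0.05, and DESeq2 and limma-voom called Ugdh. Slc35d1, which carries UDP-glucuronate into the endoplasmic reticulum, was 7.70 to 10.5 CPM against 7.48 and 6.49 CPM (edgeR adjusted p = 0.261). The gene listed as Pgm1 lies on chromosome 5, and its identifier has the symbol Pgm2 in a newer name table, so it may not be the enzyme that feeds UDP-glucose. It was 36.1 to 55.8 CPM against 22.0 and 29.9 CPM. Among users of UDP-glucuronate in glycosaminoglycan synthesis, 6 of 23 were in the table and 5 were tested, 4 positive and 1 negative (median 0.76). EdgeR called none of these, with 1 at an unadjusted p under 0.05, DESeq2 called Has2 and Ndst1, and limma-voom Ext1 and Ndst1. Has2, the hyaluronan synthase, was 13.4 to 33.7 CPM in 3 lines lacking Cpt1a, 0 in KO_4258, and 0.0316 and 1.22 CPM in the controls. Ext1, a heparan sulfate polymerase, was 107 to 131 CPM against 33.7 and 94.8 CPM, and Glce, the epimerase of the same chain, 42.9 to 120 against 42.3 and 39.1 CPM. Ndst1, a heparan sulfate sulfotransferase, was 181 to 217 CPM against 288 and 277 CPM, a log2 fold change of -0.49 (SE 0.15) at an edgeR adjusted p of 0.0740.

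Other listed genes of the Abcc1 subfamily varied more than Abcc1 did among the lines lacking Cpt1a, as did most genes tested. The Abcc1 range was in the 5.60 percentile, and Abcc9 held only 2 to 18 reads in each of these lines. Of 11 ABCC genes 4 were in the table, 3 positive and 1 negative (median 3.38). EdgeR and limma-voom called Abcc1 of these, and DESeq2 called all 4. Abcc3, a pump for glucuronide conjugates, was 6.60 CPM in KO_1922, 2.06 in KO_1925, 3.53 in KO_2768 and 0.345 in KO_4258, with 1 read in each control line. Abcc4, a pump for cyclic nucleotides and other organic anions, was 9.35 to 18.1 CPM in the same 3 lines, 0 in KO_4258, and 0.253 and 0.624 in the controls. Abcc9, a sulfonylurea receptor subunit of potassium channels, was 0.0460 to 0.437 CPM against 1.52 and 3.43 CPM. Of 37 other ABC transporters 11 were in the table and 9 were tested, 6 positive and 3 negative (median 0.29). EdgeR by line called Abcd3 among them, and limma-voom called Abcd3 and Abcg2. DESeq2 calls in this list included Abcd3, Abcb1b and Abcg2. Abcd3, a peroxisomal fatty acid transporter, fell from 208 CPM ± 26.5 (SD, n = 2 lines) to 94.9 ± 17.0 (SD, n = 4 lines) at an edgeR adjusted p of 0.0471. Abcb1b, a multidrug pump, was 10.3 to 66.4 CPM in 3 lines and 0 in KO_4258, against 0.0631 and 0.312 CPM. Its close copy Abcb1a was 2.04 to 25.3 CPM against 0.0316 and 0.156 CPM, and reads could be split between the pair. Abcg1, a sterol exporter, was 6.76 to 28.3 CPM in 3 lines and 0.0230 in KO_4258, against 0.158 and 1.56 CPM. Abcg2, the breast cancer resistance protein, was 12.4 to 44.9 CPM against 92.7 and 91.4 CPM, a log2 fold change of -1.96 (SE 0.53) at an edgeR adjusted p of 0.0657.

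More conjugating enzymes had negative than positive values. Of 27 glutathione S-transferases and sulfotransferases 8 were in the table, 3 positive and 5 negative (median -1.27), and the ones edgeR called, Mgst1 and Mgst2, are both microsomal glutathione transferases. DESeq2 called these and Gstz1, and limma-voom these, Gstz1 and Gsta3. Mgst1 fell from 888 CPM ± 101 (SD, n = 2 lines) to 273 ± 81.4 (SD, n = 4 lines), a log2 fold change of -1.70 (SE 0.28, edgeR adjusted p = 0.0421). Mgst2 fell from 69.8 CPM ± 9.85 to 20.8 ± 4.20 in the same lines, a log2 fold change of -1.74 (SE 0.23, edgeR adjusted p = 0.0335). The microsomal transferase Mgst3 went the other way, at 18.9 to 50.4 CPM in lines lacking Cpt1a against 9.12 and 15.9 CPM. Its log2 fold change was 1.27 (SE 0.50, edgeR adjusted p = 0.0966), and it was named after its values were seen. Gsta3 was 6.26 to 48.0 CPM against 109 and 67.0 CPM, and Sult1d1 0 to 0.483 CPM against 1.61 and 1.09 CPM. Genes of glutathione synthesis and thioredoxin partners, 4 of 11 in the table, were all positive (median 1.14). EdgeR called none, with 2 at an unadjusted p under 0.05, and DESeq2 and limma-voom called Glrx. Glutathione reductase, Gsr, was 183 to 261 CPM in KO_1922, KO_1925 and KO_4258 but 54.4 CPM in KO_2768, below the controls at 81.8 and 69.8 CPM. Glrx was 72.4 to 98.6 CPM against 27.6 and 54.7 CPM, Srxn1 68.1 to 94.3 against 66.4 and 55.7, and Ggt1 0.483 to 1.67 against 0.0631 and 0.437.

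Of 20 regulators of the Nrf2 pathway 3 were in the table, 2 positive and 1 negative (median 0.63), and Nfe2l2 and Keap1 were not analysed here. Cul3 was called by edgeR, DESeq2 and limma-voom, and Gsk3b by DESeq2. Cul3, the scaffold of the ligase that marks Nrf2 for degradation, rose from 95.5 CPM ± 12.3 (SD, n = 2 lines) to 178 ± 14.9 (SD, n = 4 lines), a log2 fold change of 0.90 (SE 0.17, edgeR adjusted p = 0.0479). Dpp3, a peptidase that competes for Keap1, was 155 to 271 CPM against 112 and 160 CPM. Gsk3b, a kinase that favours Nrf2 turnover, was 104 to 141 CPM against 149 and 166 CPM. With all annotated genes counted as tests the edgeR adjusted p was 0.623 for Cul3, 0.547 for Mgst1, 0.435 for Mgst2 and 0.612 for Abcd3. Leaving out 1 line at a time took the edgeR adjusted p as high as 0.152 for Cul3, 0.139 for Mgst1, 0.116 for Mgst2 and 0.152 for Abcd3, with no change of direction. The edgeR adjusted p was also 0.0557 for Cul3 with median-of-ratios factors and 0.0502 with 1 library per line, 0.0525 for Mgst1 with the authors' size factors, and 0.0530 and 0.0611 for Abcd3 without TMM and with the authors' size factors. The luminal markers Elf5 and Erbb3 were also lower in each of the lines lacking Cpt1a, and their part in these values was not tested.

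**Figure D4:**
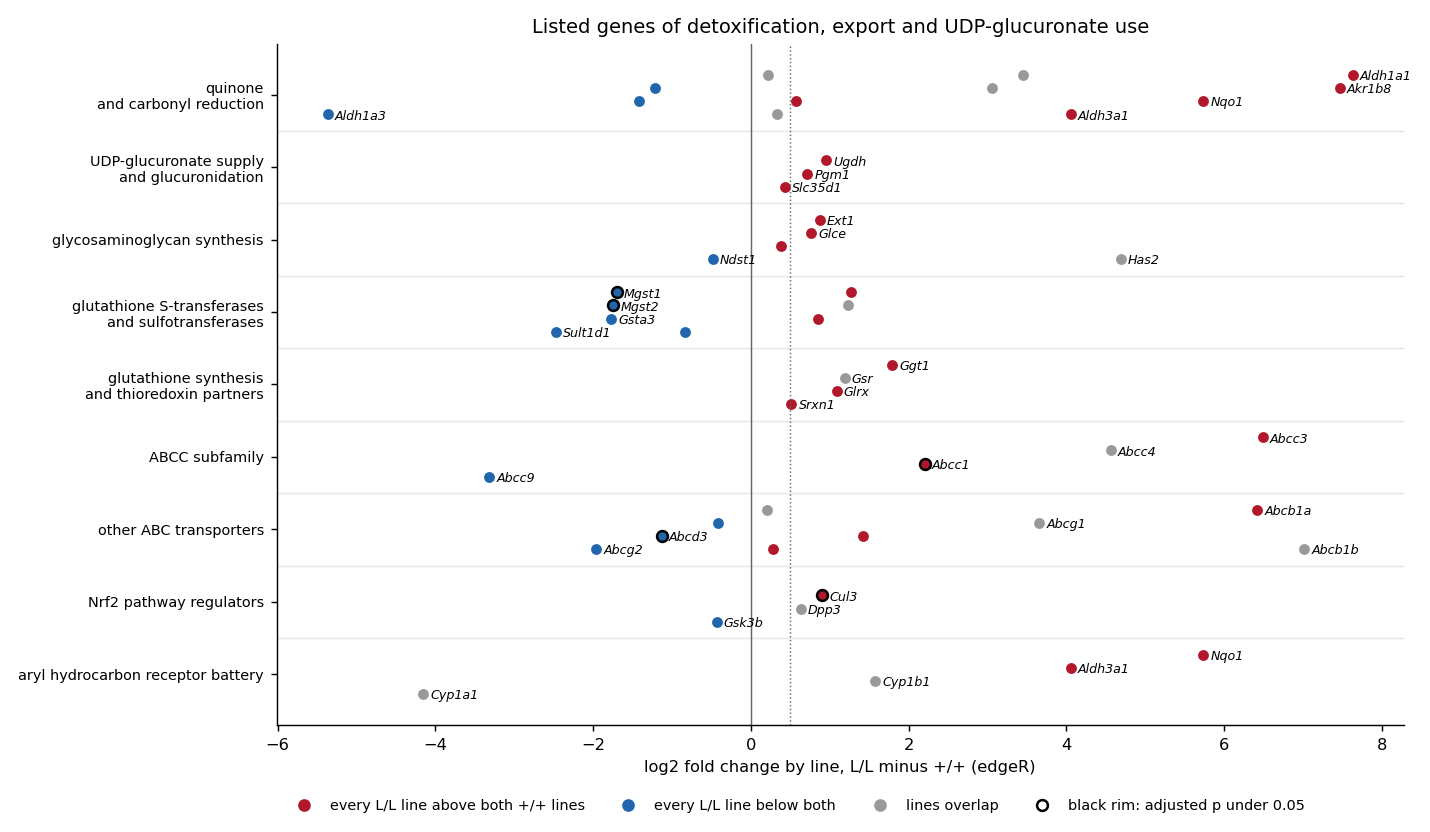
Log2 fold change by line of the 50 tested list genes (horizontal axis) in their 9 lists (rows), in red where every NIC/Cpt1a L/L line was above both controls, in blue where every one was below, in grey where lines overlapped, and with a black rim where the adjusted p was under 0.05. The members and the list genes named by rule carry labels. A dotted line marks the median of all genes, 0.49, and 35 of the 50 genes lie right of 0. Fitted values of Nqo1, Abcc3 and Akr1c18 depend on the prior count, since no control library held over 3 of their reads.

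The genes with the most similar course over the 6 lines were sought by the root mean square difference of log2(CPM + 0.1) after centring each gene, over the 4268 genes tested. For Abcc1 these were Nfatc1 at 0.206, 9130008F23Rik at 0.208 and Fam46b at 0.220, against a median of 1.33 over all genes. For Ugdh they were Irak1bp1 at 0.120, Enpp4 at 0.127 and Ext1 at 0.130, against a median of 0.975. For Nqo1 they were S100a9 at 0.252, Syt17 at 0.386 and Pde4a at 0.419, against a median of 2.03. The members were not each other's closest genes. Ugdh ranked 173 among the genes closest to Abcc1, at a difference of 0.574, and Abcc1 ranked 1114 among those closest to Ugdh. Abcc1 ranked 487 and Ugdh 883 among those closest to Nqo1, which itself ranked 2218 for Abcc1 and 3407 for Ugdh. S100a9 shared the low value of Nqo1 in KO_4258, at 0.207 CPM against 2.06 to 3.45 CPM in the remaining lines lacking Cpt1a, with 0 and 0.125 CPM in the controls. These are 6 points that share lines and depth, and the likeness is a description.

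**Figure D5:**
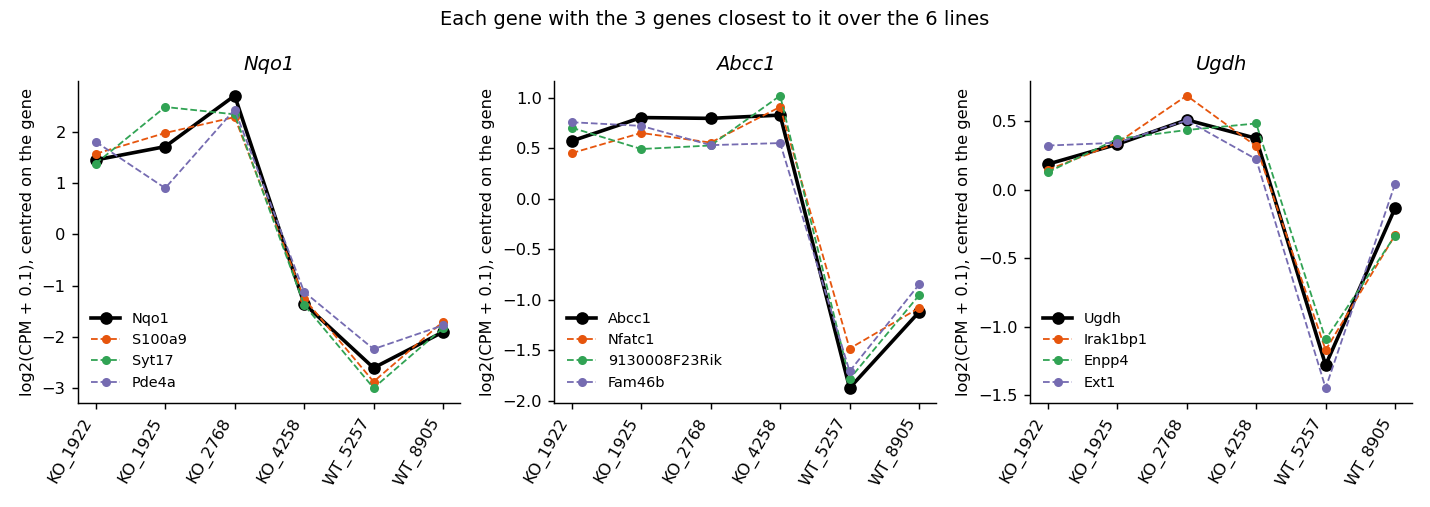
Log2(CPM + 0.1) centred on each gene (vertical axes) over the 6 lines for each member (black) and its 3 closest genes (dashed, colours), with lines joining points only to guide the eye. The Nqo1 panel falls at KO_4258 to near the controls, though still above them. The Abcc1 and Ugdh panels stay level across the 4 NIC/Cpt1a L/L lines and are lowest in WT_5257.

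The listed genes nearest to Abcc1 were Snai2, 230 kb toward higher coordinates, and Gm4262, 3346 kb toward lower ones, and Snai2 was the only listed gene within 2 Mb. Snai2 was highest in KO_2768, at 2.84 and 2.51 CPM in KO_1922 and KO_1925, and at 0 CPM in KO_4258, where Abcc1 was at 176 CPM. On chromosome 16, 46 of 113 other tested genes, or 40.7%, had a positive log2 fold change, so Abcc1 went against the majority of its chromosome. Over all genes tested 58.6% were positive, with a median of 0.49. Ugdh lay 1285 kb from Pgm1 and 543 kb from 9130230L23Rik. Of 5 listed genes within 2 Mb of it 3 were positive, and on chromosome 5 132 of 231, or 57.1%. Nqo1 lay 292 kb from Terf2 and 36.0 kb from Rps26-ps1, and 11 of the 12 listed genes within 2 Mb were positive. On chromosome 8 as a whole 145 of 187 other tested genes, or 77.5%, were positive, with a median log2 fold change of 0.68.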

How the data were processed

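RNA-Seq libraries of the 6 lines were made with the NEBNext Ultra II kit. The authors trimmed reads, aligned them to mm10 (GRCm38) with STAR and obtained read counts per gene with HTSeq, per the labels and methods, and deposited whole-number counts. The strand setting is not given in the sources used here. The deposited normalized signal is the count divided by 1 size factor per library. The deposited FPKM divides the count by gene length and library total. Deposited log2 fold changes were not used, and the deposited p-values served only to find where the table had been truncated. Per-sample columns outside the 11 libraries numbered 0.

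Library totals were recovered from counts, lengths and FPKM. Counts of duplicates were summed by line, scaled by TMM within the listed genes, filtered with filterByExpr and tested with edgeR 4.0.16 (quasi-likelihood) in R 4.3.3, with limma 3.58.1 and DESeq2 1.42.0 as alternatives. Line differences used a line factor over 11 libraries. Benjamini-Hochberg adjustment ran over the genes tested, with a threshold of 0.05. Exact permutation tests used scipy 1.17.1. The functions were tested on simulated data. The members and gene lists were chosen with earlier results of these data known. Of each list up to 4 genes with the greatest absolute log2 fold change were named, with any called, the 3 closest genes of each member and its nearest listed neighbours. Counts of 3 or fewer were taken as the floor, and intervals and floors cover counting error only. Duplicate libraries of each line differed by more than sampling noise, with a chi-square per degree of freedom of 2.12 to 9.27, so both were kept as libraries of 1 line. The lines are described as independent and tumor-derived, and p-values by line measure the spread between them.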

Additional observations from a re-analysis of the deposited data

Results flagged for a closer look

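Over the 4 NIC/Cpt1a L/L lines, 53 genes of the lists were examined for 1 line far from the other 3, and 10 were found. Chance alone gives about 1 in 20 groups, but the rule was not run over all listed genes. In the fit by line factor 88.6% of genes differed among these lines. The 10 can therefore not be read as an excess in these lists. Among the members the flagged gene was Abcc1, at 147 CPM in KO_1922 with the other 3 lines between 172 and 176 CPM. In KO_2768, Aldh1a1 was 84.3 CPM, Akr1b8 41.9 CPM and Abcb1a 25.3 CPM, each above the other lines, while Srxn1 was 68.1 CPM, below 92.6 to 94.3 CPM. In KO_4258, Mgst2 was 27.1 CPM against 18.1 to 19.4 CPM, Gstp2 9.43 CPM against 0.0261 to 0.233 CPM, and Cyp1b1 94.2 CPM against 262 to 292 CPM. Gstp2 has near-identical family members, and its value is uncertain. In KO_1922, Cyp1a1 was 3.81 CPM against 0 to 0.548 CPM, and in KO_1925, Aldh1a3 was 0.365 CPM against 0.0388 to 0.0728 CPM. In KO_2768 the fibroblast marker Dcn was at 1368 CPM and in KO_4258 the leukocyte marker Csf1r at 312 CPM, and their part in these values was not tested.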

How the results depend on the processing

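All 3 members kept their direction under 16 alternatives, and so did 31 named list genes in 496 values, of which 399 kept their side of the threshold, 71 came to pass it and 26 no longer passed it. The cause was not tested in any case. The named list genes were picked for large fold changes or a call, among genes already called on these libraries. A change of direction was thus unlikely from the start, and its absence says little. Cyb5r3, Gstp2 and Abcf1, which changed direction with 1 line left out, were not among the 31. The counts of raised and lowered genes, 71 and 148 by line, were 1873 and 1680 with each library taken as its own sample, 305 and 919 with limma-voom and correlated duplicates (correlation 0.955), 974 and 1446 with DESeq2, and 0 and 0 with every annotated gene counted as a test. Lowered genes were 301 with median-of-ratios size factors, 93 without TMM, 82 with the authors' size factors and 252 without a filter. Other scalings moved the median log2 fold change of all genes by -0.12 to 0.10. Leaving out 1 line gave 0 to 294 raised and 0 to 347 lowered genes, with 0 in edgeR without KO_1922, KO_1925 or WT_5257, where 301 to 613 were raised and 712 to 953 lowered at an unadjusted p under 0.05, and the highest counts without KO_4258. With every library separate, Nqo1 was 5.33 and Ugdh 0.87, with DESeq2 5.81 and 0.86, and with limma-voom Ugdh was 0.98, all past the threshold, whereas Nqo1 with limma-voom was 4.37 at an adjusted p of 0.156. Abcc1 did not pass with every annotated gene counted, at 2.20. The log2 range over the lines lacking Cpt1a, recomputed without some lines after seeing the data, was 0.23 for Nqo1 and 0.13 for Ugdh without KO_2768 and KO_4258, no longer past the threshold, and without 1 line 1.23 to 4.02 for Nqo1, 0.036 to 0.25 for Abcc1 and 0.18 to 0.31 for Ugdh. Leaving out 1 line gave 4.71 to 9.06 for Nqo1, 1.78 to 2.64 for Abcc1 and 0.39 to 1.65 for Ugdh. On log2(FPKM + 1) Nqo1 was 1.01 and Abcc1 2.10, and without 1 line log2(FPKM + 0.01) was 1.93 to 2.68 for Abcc1 and 0.55 to 1.70 for Ugdh. With the replicate number as a replicate block the counts were 1706 and 1680, Nqo1 was 5.23 and Ugdh 0.87. The numbers do not pair the samples, since over 10 pairs of lines the difference between duplicates correlated at -0.05 to 0.07. At 2 control reads the size of the Nqo1 difference is limited by depth.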

Other observations

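Of the ABC and detoxification genes outside the members, several were listed at or near 0 in KO_4258 while the other 3 lines lacking Cpt1a expressed them. The share of all genes with this course was not counted. The 4 fibroblast markers in the table were also at 0 CPM in KO_4258, so it was not particular to these lists. Akr1b3, an aldose reductase, was 89.0 CPM in KO_1922, 129 in KO_1925 and 164 in KO_2768, but 0.253 CPM in KO_4258, below the controls at 11.5 and 11.4 CPM. This gene was chosen after its values were seen. Abcc4, Has2 and Abcb1b had 0 reads in both KO_4258 libraries. In the same 2 libraries Abcc1 had 4239 and 3412 reads and Ugdh 2327 and 2106, so low values there were not shared by all genes of these lists.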
